A study of Rattus norvegicus with 2 samples.

Results

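The urokinase system is described here through 6 genes: the plasminogen activators Plau and Plat, the urokinase receptor Plaur, and the serpins Serpine2, Serpinb2 and Serpinb5. They are the listed genes of this system that have a probe with a gene name, out of 15037 named genes on the array, and each had 1 probe. They were selected on their deposited log2 values in the comparison of the 2 arrays as well as on their names, so their differences are a description. The data are 2 arrays of cultured epidermal keratinocytes from newborn rats, which form the stratified surface layer of skin. The control array (NC+VC) held cells that the labels call non-treated, and the siTet2/3 array (siTet2/3+VC) held cells that had received siTet2 and siTet3 siRNAs, at 1 µM each; the labels do not say whether the control cells received another siRNA or transfection reagent alone. Both cultures were grown with 10% serum and hydrocortisone and both were given vitamin C for 12 h, beginning 24 h after transfection, so no effect of vitamin C can be read from them. TET enzymes start the removal of methyl groups from cytosine by oxidising them, a reaction that vitamin C helps. Each group was 1 array, so nothing below has a replicate check, no test was possible, and "higher" and "lower" describe these 2 arrays. In RNA from a whole culture, fewer cells that express a gene and less of its RNA per cell cannot be told apart.

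Urokinase and tissue plasminogen activator are serine proteases that cut plasminogen into plasmin, a protease that dissolves fibrin and other matrix proteins. Urokinase is held at the cell surface by its receptor, which is anchored in the membrane by a lipid. Serpins are inhibitors that trap a protease by offering a loop as bait. In skin, keratinocytes at a wound edge are known to switch on urokinase and its receptor as they migrate, whereas resting epidermis holds little of either.

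The promoters of the members are shown first for the genes that the results turn on, because the receptor and urokinase differed in the same direction while Serpinb5 differed less. The sequences are from RefSeq (build GRCr8) and are the 250 bases before the annotated start, 5′ to 3′ on the strand of the gene. Capitals mark matches to the AP-1 motif TGANTCA and to the Sp1 GC box GGGCGG on either strand. Plau lies at chr15:3511988-3512237 on the minus strand, Plaur at chr1:89181113-89181362 on the plus strand and Serpinb5 at chr13:23499953-23500202 on the plus strand.
Plau: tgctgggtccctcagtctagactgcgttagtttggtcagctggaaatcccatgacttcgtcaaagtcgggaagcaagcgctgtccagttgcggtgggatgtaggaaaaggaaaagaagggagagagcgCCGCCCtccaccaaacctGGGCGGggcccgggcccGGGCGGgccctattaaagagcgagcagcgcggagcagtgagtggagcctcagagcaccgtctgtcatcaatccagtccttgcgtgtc
Plaur: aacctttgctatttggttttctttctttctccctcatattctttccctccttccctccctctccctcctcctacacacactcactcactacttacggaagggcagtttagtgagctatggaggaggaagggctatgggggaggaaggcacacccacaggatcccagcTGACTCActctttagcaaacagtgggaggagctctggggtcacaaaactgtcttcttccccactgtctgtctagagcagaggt
Serpinb5: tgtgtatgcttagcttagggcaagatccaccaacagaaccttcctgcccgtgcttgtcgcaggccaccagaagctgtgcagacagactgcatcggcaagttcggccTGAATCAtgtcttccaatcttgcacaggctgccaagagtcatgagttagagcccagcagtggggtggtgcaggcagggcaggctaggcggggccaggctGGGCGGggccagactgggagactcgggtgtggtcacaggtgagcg

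The values are signals on a log2 scale, so a difference of 1 log2 unit is 2-fold. A gene was taken as above background where its higher value passed 5.04 log2 units, the 95th percentile of genes for olfactory, vomeronasal, taste and trace amine receptors, and 8103 genes did so. A stricter floor, set at the same percentile of negative-control probes, stood at 8.31 log2 units. Of the 6 members, 5 lay above the first floor, each of them on both arrays, and Serpine2 lay below it on both. Probes respond differently, so the levels of different genes are not compared. Where a pair of values is given, that of the control comes first. Over the named genes, which are not independent replicates, Pearson's r between the arrays was 0.989. The targeted genes Tet2 and Tet3 had no named probe, so the knockdown itself was not analysed here.

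Markers of the labelled cell type were detected. All 7 keratinocyte markers with a named probe, of 10 listed, lay above the floor, among them the basal keratin gene Krt14 at 18.54 log2 units in control cells and 18.70 in siTet2/3 cells. Of the 7, 5 were lower on the siTet2/3 array, beside 55.0% of all genes above the floor. None of the 7 passed 1.5-fold, and the median difference was -0.13. Lower by the most were the spinous keratin gene Krt1 (7.07 and 6.63), the epithelial master regulator gene Tp63 (13.15 and 12.75) and the integrin gene Itgb4 (13.05 and 12.68). Cdh1 (17.65 and 17.62) and Dsg3 (15.06 and 15.08) read nearly the same on both arrays. The summed signal of the 7, as log2, was 19.35 and 19.42, a sum in which Krt14 weighs most. The part of these markers in the members' differences was not tested. Fibroblasts and macrophages also express urokinase and its receptor. None of the 8 fibroblast markers, Col1a1 and Pdgfra included, passed the floor on either array, with a summed signal of 6.85 in control and 7.06 in siTet2/3 cells. Of 8 immune cell markers 1 passed, Cd68 at 5.52 and 5.24 log2 units, while Ptprc read 2.78 and 2.90; the summed signal was 6.61 and 6.69. Of 7 endothelial markers 1 passed, Tek, at 9.66 in control cells and 9.25 in siTet2/3 cells. The floor was also passed by 1 of 5 named melanocyte markers, 1 of 6 smooth muscle and pericyte markers and 2 of 5 Merkel cell markers. Of the last, Isl1 read 6.70 and 7.20, and Sox2 read 5.71 and 4.93, at least 1.59-fold lower against the floor; its part in the members' differences was not tested.

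Both plasminogen activator genes and the receptor gene were lower on the siTet2/3 array, each by slightly more than 2-fold. The 2 serpins above the floor were not: Serpinb2 read almost the same on both arrays and Serpinb5 was a little lower. Past 1.5-fold there were 3 lower and 0 higher genes among the 5 detected members. The same limit was passed downward by 13.2% and upward by 8.63% of the 8103 genes. At a limit of 2-fold the members' count of lower genes was also 3, and 3.05% of all genes passed. The median difference of the 5 members was -1.02, beside -0.05 over all genes above the floor. Because these genes were picked with this comparison known, the counts describe the members and support nothing further.

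Plau encodes urokinase, the activator that works mainly at the cell surface. It read 11.51 log2 units in control cells and 10.42 in siTet2/3 cells. The difference of -1.09 made it 2.13-fold lower with siTet2/3, and 156 of the 8103 genes had a lower difference. Among the 500 genes nearest to it in mean signal the robust SD of the differences, taken from the median absolute deviation, was 0.36 log2 units; that spread holds both noise and true differences between the cultures. Plau stayed above both floors on both arrays.

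Plat encodes tissue plasminogen activator, best known for dissolving clots in blood vessels. It read 7.88 log2 units in control cells and 6.86 in siTet2/3 cells, a difference of -1.02 or 2.03-fold. A lower difference was found for 224 genes, and the 500 genes of nearest signal had a robust SD of 0.45. After centring on the median difference it was 1.96-fold lower, just short of 2-fold. Both of its values lay under the stricter floor of 8.31. Its difference therefore rests on a signal that some negative-control probes also reach.

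Plaur encodes the receptor that gathers urokinase on the membrane. It read 10.01 log2 units in control cells and 8.81 in siTet2/3 cells. This was the widest gap of the 6 genes, -1.20 log2 units or 2.30-fold, with 90 of 8103 genes lower still. The robust SD at its signal was 0.40. Its value on the siTet2/3 array was 0.50 log2 units above the stricter floor.

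**Figure D1:**
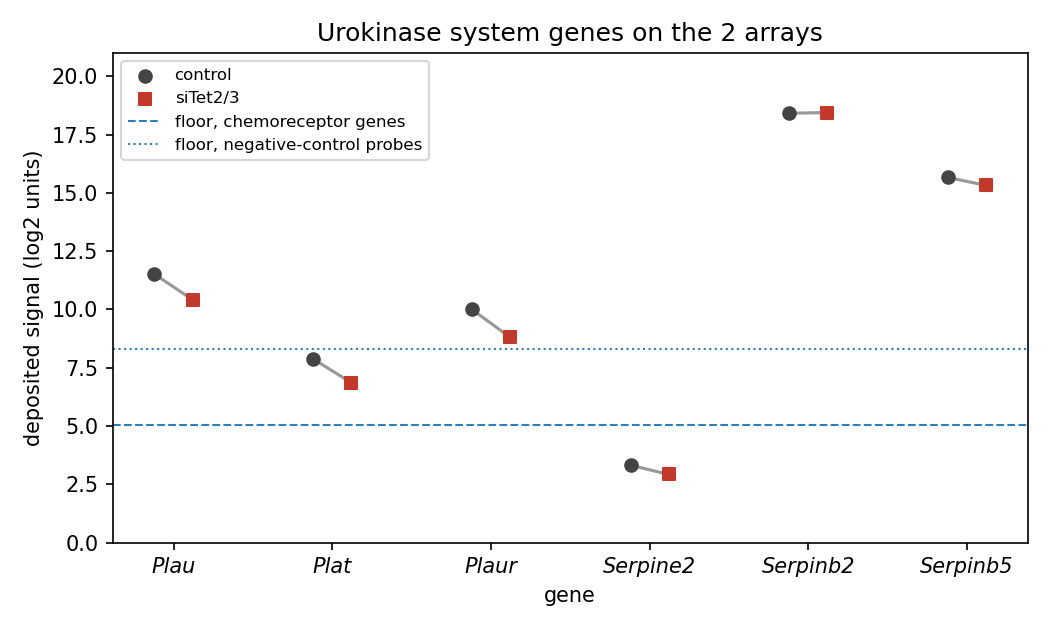
Deposited signal in log2 units (vertical axis) of the 6 genes (horizontal axis) on the control array (circles) and the siTet2/3 array (squares), 1 array each; the dashed and dotted lines are the floors of 5.04 and 8.31 log2 units. Plau, Plat and Plaur step down, with differences of -1.02 to -1.20 log2 units, Serpinb2 and Serpinb5 far less or not at all, and Serpine2 lies below both floors.

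Serpinb2 encodes plasminogen activator inhibitor 2, a fast inhibitor of urokinase that keratinocytes make in large amounts and keep mostly inside the cell. It read 18.41 log2 units in control cells and 18.45 in siTet2/3 cells, a difference of 0.03. These values lie near the top of the deposited scale, which ends at 19.93. The differences of the 500 genes of nearest signal had a robust SD of 0.29 log2 units, narrower than at the signal of Plau, Plat or Plaur. How far the top of the scale limits a difference in Serpinb2 was not tested.

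Serpinb5 encodes maspin, an epithelial serpin that does not inhibit proteases in the usual way. It read 15.66 log2 units in control cells and 15.32 in siTet2/3 cells. The difference of -0.34, or 1.27-fold lower, was about the size of the robust SD of 0.32 at its signal, and 2168 genes above the floor had a lower difference. Serpine2 encodes protease nexin 1, a secreted inhibitor of thrombin, urokinase and tissue plasminogen activator. Its values of 3.32 and 2.92 log2 units were both under the floor, so no fold is given.

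Comparing members with each other removes any constant shift between the arrays. Plau was 2.18-fold lower relative to Serpinb2 and 1.69-fold lower relative to Serpinb5. Plaur was 2.35-fold lower relative to Serpinb2 and 1.82-fold relative to Serpinb5, and Plat 2.08-fold and 1.61-fold. Between Plau, Plat and Plaur the differences were much alike: Plaur was 1.08-fold lower relative to Plau and 1.13-fold lower relative to Plat. Serpinb5 was 1.29-fold lower relative to Serpinb2. A ratio of this kind shows unequal change and not which gene moved, and the ratios to Serpinb2 carry the untested limit of its place near the top of the scale.

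**Figure D2:**
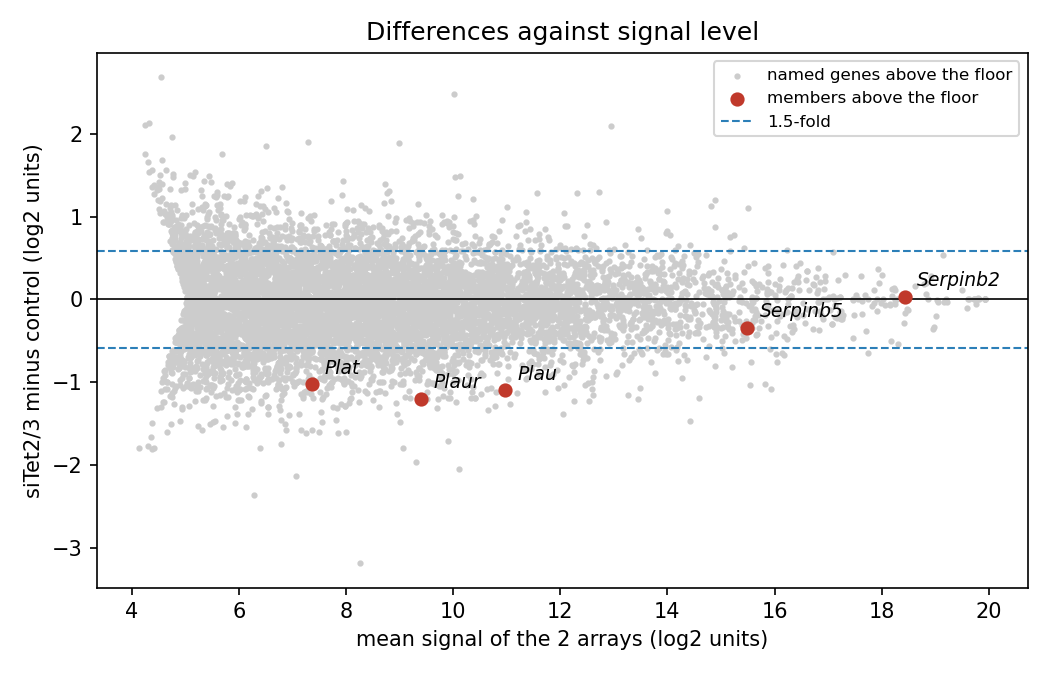
Difference siTet2/3 minus control in log2 units (vertical axis) against the mean signal of the 2 arrays in log2 units (horizontal axis); each grey point is 1 of the 8103 named genes above the floor, the red points are the 5 members above it and the dashed lines mark 1.5-fold. Plau, Plaur and Plat lie below the lower dashed line, and Serpinb5 and Serpinb2 lie between the lines. How much of the flared left end follows from choosing genes by their higher value was not tested.

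Serpinb5 and Serpinb2 belong to clade B, serpins that lack a classical secretion signal and mostly act inside cells. In the RefSeq gene order both lie in 1 cluster of 10 clade B genes on the same chromosome, with Serpinb5 at one end and Serpinb2 as the eighth. Of these genes 8 had a named probe. Serpinb7, next to Serpinb2, read 14.84 log2 units in control cells and 15.03 in siTet2/3 cells. Serpinb10, on its other side, read 8.10 and 8.09. Serpinb12, beside Serpinb5, read 8.35 and 8.20, and Serpinb11 in the middle read 8.84 and 9.00. No gene of the cluster above the floor differed by 1.5-fold, a limit that 13.2% of all genes passed downward and 8.63% upward. Serpinb13, at 3.98 and 3.07 log2 units, was below the floor on both arrays.

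**Figure D3:**
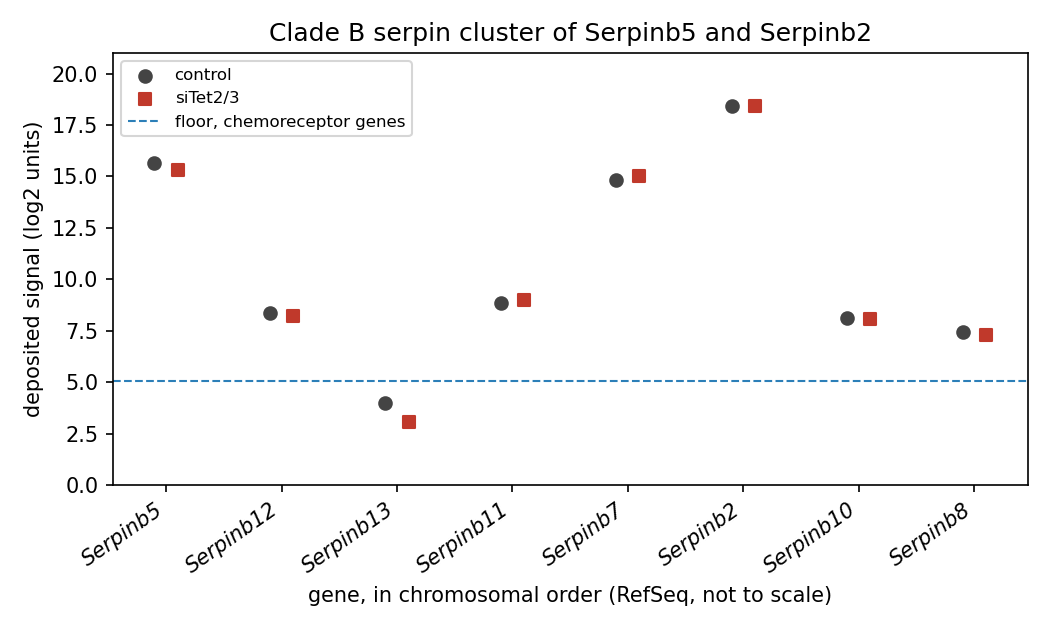
Deposited signal in log2 units (vertical axis) on the control array (circles) and the siTet2/3 array (squares) for the 8 clade B serpin genes of 1 cluster with a named probe, in their order on the chromosome (horizontal axis, not to scale); the dashed line is the floor of 5.04 log2 units. The 2 symbols nearly coincide for each gene above the floor, from -0.34 for Serpinb5 to 0.19 for Serpinb7.

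Across the whole clade B family outside the members, 8 of 11 named genes passed the floor, and 0 lay past 1.5-fold in either direction. The shares over all genes were 13.2% lower and 8.63% higher, so 0 among 8 genes is only a description. The median difference of the 8 genes was -0.08, close to the -0.05 of all genes. The largest difference was that of Serpinb6a, an intracellular inhibitor of serine proteases, at 14.35 and 14.00 log2 units. Of 21 named serpins of other clades, 2 passed the floor. Serpinh1, which encodes the collagen chaperone HSP47 and inhibits no protease, was 1.74-fold lower (12.64 in control, 11.84 in siTet2/3 cells). The other, Serpini2, was above the floor on the siTet2/3 array alone.

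Detected genes for plasminogen, its receptors and other steps of fibrinolysis and clotting mostly stayed short of 1.5-fold. Of 21 listed genes, all with a named probe, 9 passed the floor, all on both arrays. Past 1.5-fold there were 1 lower and 1 higher gene, where 13.2% of all genes above the floor were lower and 8.63% higher. The median was -0.03, and 0.03 after centring on the median of all genes. F2rl1, which encodes protease-activated receptor 2, a receptor that serine proteases such as matriptase and trypsin switch on by cutting it, was the lower one. It read 8.65 log2 units in control cells and 7.04 in siTet2/3 cells, or 3.06-fold lower. Thbd, which encodes thrombomodulin, a thrombin receptor that epidermis also makes, was 1.64-fold higher (7.58 against 8.30). Under the stricter floor lay both values of Thbd and the siTet2/3 value of F2rl1.

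Genes for surface proteins that bind plasminogen all stayed short of 1.5-fold. Anxa2, which encodes annexin A2, a receptor for plasminogen and tissue plasminogen activator, read 19.72 log2 units on both arrays, near the top of the scale. Its partner gene S100a10 read 15.79 in control cells and 15.61 in siTet2/3 cells. Eno1, which encodes enolase, another plasminogen receptor, read 19.23 and 19.20, also near the top. How far the top of the scale limits a difference in Anxa2 or Eno1 was not tested. Plgrkt, a membrane receptor gene for plasminogen, read 9.36 and 9.84. Plg itself, made mainly by liver, lay below the floor at 3.79 and 4.65.

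The receptor has no part inside the cell and signals through partners. Of 15 listed partner and clearance genes 12 had a named probe and 7 passed the floor. Past 1.5-fold as measured there were 0 lower genes and 1 higher, where 13.2% of all genes were lower and 8.63% higher. With values raised to the floor or with the stricter floor 0 were higher. The median was -0.19. Itgb1, the integrin beta 1 chain, read 18.17 log2 units in control cells and 18.12 in siTet2/3 cells. Itga5, the fibronectin receptor chain, read 11.30 and 10.85, and Egfr, the EGF receptor gene, 6.79 and 6.40. The higher one was Vldlr, which takes up complexes of urokinase with its inhibitors; its control value was below the floor, which makes its fold a bound of at least 1.46, short of 1.5-fold. Lrp1, the main clearance receptor, lay below the floor at 4.60 and 3.47.

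The receptor shares its 3-finger fold with the Ly6 family. Of 14 listed relatives 11 had a named probe and 6 passed the floor. Past 1.5-fold there were 3 lower and 0 higher genes, and the median was -0.55. All genes above the floor had shares of 13.2% lower and 8.63% higher and a median of -0.05. Ly6e, a gene best known from the interferon response, was 2.79-fold lower (8.29 against 6.81). Lypd3, which encodes the receptor's close relative C4.4A in the spinous layer, read 12.92 in control cells and 12.33 in siTet2/3 cells. Lynx1, a modulator of acetylcholine receptors, read 11.98 and 11.38. Lypd3 and Lynx1 were both 1.51-fold lower, and after centring on the median difference 1 gene of this list, Ly6e, was past 1.5-fold. Both values of Ly6e, however, lay under the stricter floor of 8.31. With that floor the list had 2 lower genes, Lypd3 and Lynx1.

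Genes for substrates of plasmin or urokinase were mixed, and those past 1.5-fold were all higher on the siTet2/3 array. Of 19 listed genes 17 had a named probe and 11 passed the floor, all on both arrays. Past 1.5-fold there were 0 lower and 4 higher genes, where 13.2% of all genes above the floor were lower and 8.63% higher. Between these limits lay 7 genes. Negative differences were found for 4 of the 11, beside 55.0% of all genes above the floor, and the median was 0.25. Thbs1, the matrix glycoprotein thrombospondin 1, was 2.18-fold higher with siTet2/3 (14.25 in control, 15.37 in siTet2/3 cells). Pdgfc, a latent growth factor that tissue plasminogen activator cuts into its active form, was 1.91-fold higher (8.93 against 9.86). Fn1, which encodes fibronectin, was 1.74-fold higher (13.58 against 14.38). Ltbp1, which ties latent TGF-beta to the matrix, was 1.52-fold higher (7.34 against 7.94). The matrix metalloproteinase genes Mmp3, Mmp13, Mmp9 and Mmp10, whose proenzymes plasmin can activate, were all short of 1.5-fold, with differences of 0.25, 0.45, -0.08 and -0.08 log2 units. The laminin gene Lamb3 read 14.90 and 14.43, and Cdcp1, a surface glycoprotein gene, 11.79 and 11.39. The count of higher genes was also 4 after centring and after removal of a trend on signal level, and 3 with the stricter floor, under which Ltbp1 lies.

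**Figure D4:**
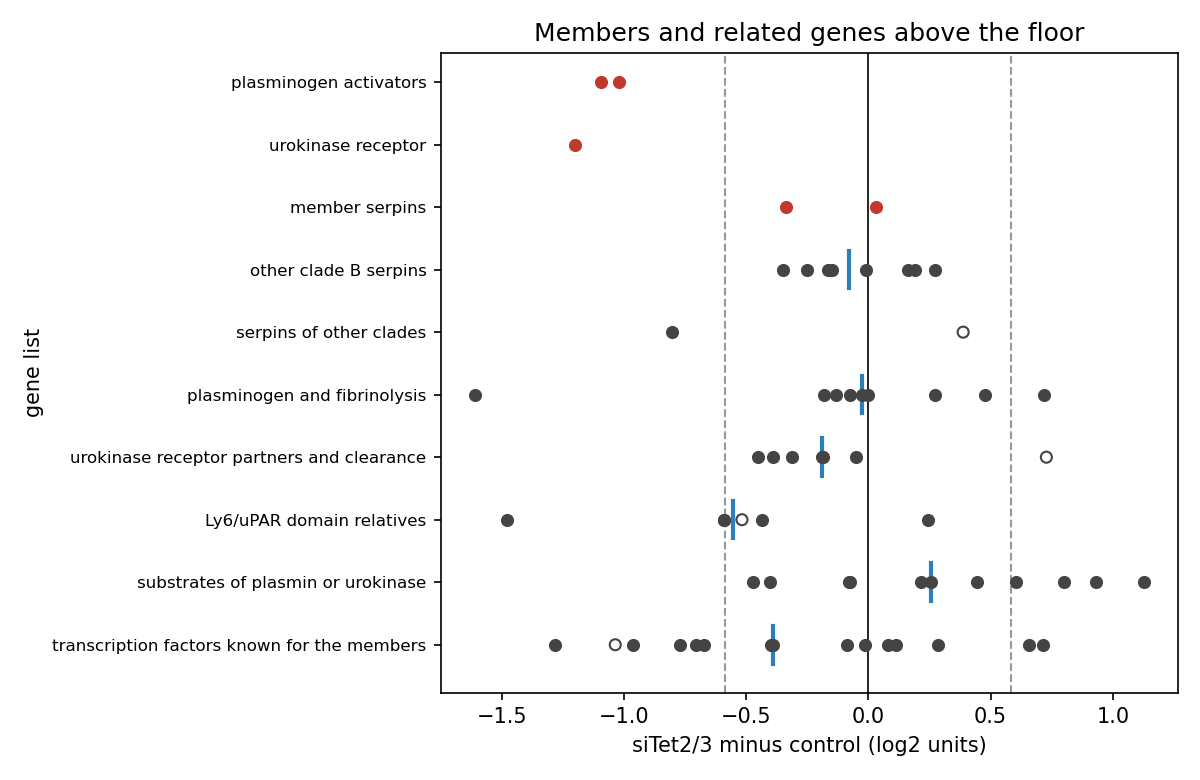
Difference siTet2/3 minus control in log2 units (horizontal axis) for each gene above the floor, by gene list (vertical axis); red points are the members, grey points other genes, open circles genes above the floor on 1 array only, blue bars the median of lists with more than 2 genes and dashed lines 1.5-fold. The activators and the receptor lie left of -1, the clade B serpins between -0.35 and 0.27, and 4 substrate genes lie to the right of 1.5-fold.

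Transcription factors known to act on these genes include AP-1, a dimer of Jun and Fos proteins, and ETS factors, which in other mammals drive the urokinase gene through an enhancer further upstream than the windows printed above. Of 16 listed factor genes 15 had a named probe and all of these passed the floor. Past 1.5-fold there were 6 lower and 2 higher genes, and the median was -0.39. Over all genes above the floor 13.2% were lower and 8.63% higher, with a median of -0.05. Jun read 8.62 log2 units in control cells and 7.34 in siTet2/3 cells, and Fosl1, a Fos family partner, 11.52 and 10.55. Fosb was at least 1.96-fold lower, with its siTet2/3 value below the floor. The NF-kB gene Nfkb1 was 1.70-fold lower, the zinc finger gene Egr1 1.63-fold and the stress factor gene Atf3 1.60-fold. Higher were Sp1 (1.64-fold, 9.70 against 10.41) and Atf2 (1.58-fold). With the stricter floor of 8.31 the list had 4 lower and 2 higher genes and a median of -0.24. Both values of Fosb and of Atf3 lay under that floor, as did the siTet2/3 value of Jun. The ETS genes Ets1 and Ets2 differed by 0.08 and 0.28 log2 units, and Junb and Fosl2 by -0.09 and -0.01. Whether any of these differences bears on the members was not tested.

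None of the motifs searched was found in the promoter windows of both Plau and Plaur. RefSeq windows of 250 bases before to 50 after the start were held for 5 of the 6 members; the windows of Serpine2 and Serpinb2 start within the annotated gene, that of Serpinb2 4088 bases from its beginning. The Plaur window held 1 AP-1 match, TGACTCA, starting 83 bases before the start, the site in capitals above. The Plau window held no AP-1 match. The windows of Serpinb2 and Serpinb5 held 1 each, TGATTCA at 189 and TGAATCA at 144 bases before the start. The motif occurred in 7.33% of all 33469 windows. The N in TGANTCA allows any base, and only with that allowance were matches found both in a member past 1.5-fold and in members short of it. The form with C in the middle, TGACTCA, was found in the Plaur window alone among the 5 windows. Whether AP-1 sites go with the members' differences was not tested.

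Sp1 GC boxes were found 3 times in the Plau window, at 122, 104 and 87 bases before the start, 6 times in that of Serpine2 and once in that of Serpinb5; 33.1% of all windows held at least 1. The NF-kB motif had matches in the windows of Plau, Serpine2 and Serpinb5, where they largely overlap the GC boxes of Plau and Serpinb5, and in 47.3% of all windows. The other motifs searched on both strands had no match in any of the 5 windows: the CRE motif TGACGTCA (1.83% of all windows), the ETS motif CCGGAAG (8.75%), the PEA3-type ETS motif AGGAAGT (8.41%), the TATA box TATAAA (14.2%) and the E-box CACGTG (6.42%). A match describes letters in the window, not a bound site.

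Content of CpG, the dinucleotide that TET proteins act on, differed widely between the windows. Plau had 20 CpG in 300 bases, more than 75.8% of all windows, while Plaur had 4 and Serpinb2 had 0. Serpinb5 had 9 and Serpine2 37, against a median of 7 over all windows. Detected genes often had as many CpG as Plau: 4004 of the 6839 genes above the floor with a window had 20 or more. Both Plau and Plaur were over 2-fold lower, with 20 and 4 CpG. Among 4004 genes above the floor with 20 or more CpG, 12.3% passed 1.5-fold downward and 7.59% upward. Of the 1855 genes with 10 to 19, the shares were 15.1% and 8.14%, and of the 980 genes with fewer than 10, 12.9% and 14.1%. The downward share was highest in the middle class. No methylation was measured here.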

How the data were processed

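Per the labels' protocols, column-purified total RNA was converted to labelled cDNA with a whole-transcript kit; there was 1 array for control and 1 for siTet2/3, grouped by the genotype label. The authors deposited log2 signals per probe set; per the submitters' processing notes these came from RMA and the Transcriptome Analysis Console, with no settings, genome build or annotation given in the sources used here. The 2 columns had nearly the same distribution (sorted values at most 0.151 apart), so a shift in total RNA would not show. The upper end of 19.93 is high for RMA, and folds are those of the deposited scale. The number of arrays limits the precision. There were 0 columns of unknown samples.

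The platform annotation named 1 gene for 15049 of 23188 gene probes, several for 0 and none for 8139. Probes of a gene were averaged (15037 genes). All 15049 named probes had an Entrez identifier found in the RefSeq table of GRCr8. Differences are siTet2/3 minus control. Genes were counted past 1.5-fold where the higher value passed the floor; with 1 value below it, the fold is a bound against the floor. Named are the members and, of each pathway or family list, genes above the floor past 1.5-fold, or the one of largest difference where none passed; other list genes and markers were named after their values were seen. Members and lists were chosen with earlier results of these data known; 4 serpin genes stand in more than 1 list, and 1 listed gene is not reported here. Alternatives were subtraction of the median difference (centring), removal of a lowess trend on level (fraction 0.3), no floor, the floor from 1153 negative-control probes, values raised to the floor, a 2-fold limit and the brightest probe. The counting code was checked on simulated data with less spread than these arrays and with genes well above the floor. That check gives no error rate for the counts here. Python 3.11.15, pandas 2.3.3 and statsmodels 0.14.6 were used.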

Additional observations from a re-analysis of the deposited data

How the results depend on the processing

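Plau, Plat and Plaur stayed lower with centring and with the lowess trend taken out. Centring subtracts the same small median difference from every gene, so it could not reverse differences of this size. Raising values to the floor and using the brightest probe could not alter these 3 genes. Each had 1 probe and lay above the floor on both arrays. The folds of Plau, Plat and Plaur were 2.06, 1.96 and 2.21 after centring and 2.06, 1.93 and 2.18 after trend removal. Plat was then short of 2-fold. Serpinb2 differed by 0.09 after centring and 0.06 after trend removal, and Serpinb5 by -0.29 and -0.30. Serpine2, below the floor, had no value after trend removal. Over all genes the counts lower and higher were 1070 and 699 of the 8103 above the floor. They were 899 and 845 after centring and 907 and 829 after trend removal, so the excess of lower genes depends on the scaling. They were 1690 and 1684 of 15037 genes with no floor and 453 and 248 of 4124 with the floor from negative-control probes. At 2-fold they were 247 and 147 of the 8103. With no floor the fibrinolysis list had 5 higher of 21 genes, the serpins of other clades 5 higher of 21 and the other clade B serpins 2 lower of 11. The substrate list then had 1 lower of 17 and the partner list 1 lower of 12. With the floor from negative-control probes the fibrinolysis and partner lists had 0 higher, and with values raised to the floor the partner list had 0 higher. After centring the Ly6 list had 1 lower. Fewer genes pass a higher floor by construction; the cause of the other shifts was not tested. Signal over background limits Serpine2, below the floor, and Plat, below the stricter one. With the floor from negative-control probes the substrate list had 3 higher, the Ly6 list 2 lower and the transcription factor list 4 lower. No paired analysis was possible because each group had 1 array.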
